A study of Saccharomyces cerevisiae with 24 samples.

Results

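The data described here are the 11 S-phase copy number tables of the sml1 strain, 1 at each of 5, 10, 15, 20, 25, 30, 35, 40, 45, 50 and 60 min after release, out of 24 samples in the series. They were chosen by strain and time point from the sample titles, and not by any measured value. Each table holds, for bins of 1000 bp along the 16 nuclear chromosomes of budding yeast, the ratio of sequencing reads at that time to reads in a G1 library of this strain. The cells were haploid MATa budding yeast of the W303 background (Saccharomyces cerevisiae) with the alleles ade2-1, ura3-1, trp1-1 and can1-100, the alleles his3-11, 15 and leu2-3, 112, and rad5-535, a mutant form of a gene for tolerance of DNA damage. URA3 replaced SML1 (sml1_delta::URA3), whose product inhibits ribonucleotide reductase, which supplies deoxynucleotides for DNA synthesis. Cultures grown in raffinose were arrested in G1 with the pheromone alpha factor, given galactose during the arrest, and released together into S-phase in galactose medium. Galactose is the inducer of the over-expression in the other strain of the series, so these control cells passed through S-phase on the same sugar but their listed genotype holds no over-expression construct. Each time point had 1 library, so no p-values are given and every difference is a description of this 1 time course.

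Chromosome replication in budding yeast starts at short sequences called origins, or autonomously replicating sequences (ARS). In G1 the origin recognition complex and its partners load the MCM helicase at each of them, which is called licensing. In S-phase the kinases CDK and DDK, with a set of limiting initiation factors, switch on some licensed origins early and others late. Forks then run out from each active origin in both directions until they meet forks from the next one. In a profile of copy number the origins appear as peaks, and the places where forks meet appear as valleys.

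The replication time of a bin (Trep) is the time after release at which its fitted ratio reached 1.5, midway from 1 to 2 copies. Trep could be estimated in 11306 of 11315 bins, or 93.7% of the sequence of the nuclear chromosomes. The median Trep was 23.5 min, and the 10th and 90th percentiles of the bins were 19.5 and 29.3 min, a range of 9.76 min. The first and last single bins had a Trep of 16.1 and 43.0 min. The SE of a fit had a median of 0.827 min. The robust SD of Trep between neighbouring bins, scaled to the error of 1 bin, was 1.22 min. Orders and ranks of loci that differ by less than this SD are given as measured and are not resolved. A difference between 2 bins carries the error of both, so somewhat larger differences may not be resolved either. When Trep was fitted to the libraries at 10, 20, 30, 40 and 50 min alone and to the other 6 libraries alone, the estimates had a Spearman rho of 0.929 across 10478 bins and a median absolute difference of 0.889 min. Both sets share the G1 library as denominator, and neighbouring bins are not independent.

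The annotated origins that stood at the extremes of this order are shown here with their sequences, since they are the first and the last places of the genome at which a start is annotated. Bases in capitals are exact matches to the ARS consensus sequence, the motif that the origin recognition complex binds, on either strand. All sequences are the plus strand of the RefSeq R64 assembly, and for an element longer than 300 bp its central 300 bp are shown. The earliest were ARS1330 (chrXIII:815342-815567, between RCE1 and BUL1), ARS428 (chrIV:913790-914038, between CRF1 and the histone gene HTB1), ARS815 (chrVIII:297060-297179, between the hexose transporter gene HXT5 and PAL2) and ARS1014 (chrX:417195-417440, beside NOP9). Among the 5 latest were ARS610 (chrVI:269577-269876, over YFR057W), ARS300 (chrIII:989-1068, left of YCL075W) and ARS1102 (chrXI:7769-8068, over the gene MCH2).
ARS1330: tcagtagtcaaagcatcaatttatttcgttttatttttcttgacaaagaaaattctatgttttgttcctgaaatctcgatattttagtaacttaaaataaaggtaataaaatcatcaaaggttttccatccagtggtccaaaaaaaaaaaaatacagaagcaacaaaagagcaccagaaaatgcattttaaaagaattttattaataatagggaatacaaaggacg
ARS428: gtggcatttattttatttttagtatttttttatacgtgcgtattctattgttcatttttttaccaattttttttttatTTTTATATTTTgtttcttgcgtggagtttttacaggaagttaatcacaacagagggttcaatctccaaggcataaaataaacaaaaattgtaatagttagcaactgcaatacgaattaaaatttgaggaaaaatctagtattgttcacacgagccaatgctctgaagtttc
ARS815: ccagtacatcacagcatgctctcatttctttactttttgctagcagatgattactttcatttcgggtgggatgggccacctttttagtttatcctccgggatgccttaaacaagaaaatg
ARS1014: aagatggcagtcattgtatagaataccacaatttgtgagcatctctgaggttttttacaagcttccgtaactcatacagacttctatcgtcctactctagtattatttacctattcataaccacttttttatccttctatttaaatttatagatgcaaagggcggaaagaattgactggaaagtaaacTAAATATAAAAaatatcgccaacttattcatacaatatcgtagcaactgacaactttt
ARS610: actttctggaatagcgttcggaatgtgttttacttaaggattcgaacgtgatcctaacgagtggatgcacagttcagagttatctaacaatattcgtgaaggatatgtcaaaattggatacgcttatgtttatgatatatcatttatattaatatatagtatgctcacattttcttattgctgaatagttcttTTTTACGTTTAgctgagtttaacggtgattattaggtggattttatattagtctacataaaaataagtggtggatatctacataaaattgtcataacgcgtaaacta
ARS300: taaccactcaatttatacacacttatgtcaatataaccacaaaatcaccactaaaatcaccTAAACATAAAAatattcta
ARS1102: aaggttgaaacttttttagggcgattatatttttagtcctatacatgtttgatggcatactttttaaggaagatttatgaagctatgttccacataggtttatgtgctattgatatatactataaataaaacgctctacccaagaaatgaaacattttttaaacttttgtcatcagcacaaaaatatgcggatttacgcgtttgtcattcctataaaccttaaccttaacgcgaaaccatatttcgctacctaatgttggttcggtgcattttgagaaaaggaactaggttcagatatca

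An exact match was present in 2 of the 4 earliest elements and in 2 of the 5 latest, so its presence did not separate them. Over a window of 300 bp centred on each origin, 107 of 324 windows (33.0%) held a match, against 1.62% of 39583 other windows of that length tiling the nuclear genome. The share was 41.0% in the first quintile of origins by Trep and 34.4% in the last, and it was lowest in the second at 26.2%, with 61 origins in each. The motif GTAAACA, a core bound by the forkhead factors Fkh1 and Fkh2, was searched on both strands in the same windows and found in 8.64% of them, against 4.89% of the other windows. The origin windows had a median AT content of 69.0% and the others 62.0%, and the part of base composition in these shares was not tested. From the first to the last quintile its share was 13.1, 13.1, 8.20, 6.56 and 4.92%, which is 8, 8, 5, 4 and 3 origins. Only 1 match of this motif overlapped a consensus match. A match is a description of the letters and not evidence of a bound site.

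The tables at 5 and 10 min were almost flat. The mean ratio over bins was 1.01 and 1.02, and the SD between bins beyond the noise of single bins, here called the contrast, was 0.976 and 0.714% of the mean. The noise itself, from differences between neighbouring bins, was 3.94 and 4.0%. No bin had reached 1.5 copies after smoothing over 9 bins (0% of bins called), and 1 origin at 5 min and none at 10 min stood 5% above the table mean. The libraries at these times do not place origins in order.

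The first peaks were visible at 15 min. The mean ratio was 1.14 and the contrast 3.32%. By the rule of 5% above the mean, 7.30% of all bins were called, and 92 of 319 origins (28.8%). Bins within 2 kb of an annotated origin had a mean ratio of 1.18, against 1.12 at 10 to 15 kb. No bin had yet reached 1.5 copies. The highest 15-min ratio among the 5 earliest minima of Trep was 1.29, at chrXV:1055001-1056000 near the right end of chromosome XV, in the gene FRE3 for a ferric reductase.

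At 20 min the early domains stood out. The mean ratio was 1.37, the contrast 8.35%, and 15.2% of bins had reached 1.5 copies, among them 120 of 319 origins (37.6%) and 12 of 16 centromere bins. These bins formed 110 blocks with a median length of 13 kb, of which 87 (79.1%) held an annotated origin. The longest block was 70 kb around the centromere of chromosome IV (chrIV:402001-472000), with ARS414, ARS415 and ARS1 and a mean ratio of 1.60. It holds CDC7, the catalytic subunit of the kinase DDK, MCD1, a subunit of cohesin, and the marker gene TRP1. The next were 60 kb on chromosome VI with ARS606 and ARS607, 59 kb on the left arm of chromosome III with ARS304, ARS305 and ARS306, and 52 kb each on chromosomes V and X. At 15 min these 5 blocks had mean ratios of 1.13 to 1.15, on either side of the genome mean of 1.14.

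Most of the genome passed 1.5 copies between 20 and 25 min. The mean ratio gained 0.228 from 15 to 20 min and 0.234 from 20 to 25 min, the largest steps of the series. At 25 min 67.3% of bins had reached 1.5 copies, with 291 of 319 origins (91.2%) and all 16 centromere bins, and the contrast was highest, at 12.5%. The bins that passed 1.5 copies at this step were 52.1% of the genome and lay at a median of 9.79 kb from an annotated origin, against 4.09 kb for those that passed at 20 min. What had not passed was split into 156 stretches with a median of 23 kb and a longest of 68 kb. A stretch here also ends where bins are absent from the tables, which by itself divides the genome into 99 pieces.

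By 30 min 92.6% of bins and 317 of 319 origins (99.4%) had reached 1.5 copies, the mean ratio was 1.77, and 53 stretches with a median of 15 kb remained below. The bins that passed at this step were 25.3% of the genome, at a median of 16.1 kb from an origin. The 6 longest stretches below 1.5 copies held no annotated origin. They lay on chromosome IV (41 kb at chrIV:823001-864000 and 36 kb at chrIV:155001-191000), VII (35 kb), XIII (35 kb), XII (34 kb) and II (29 kb). Genes in them include SCC2, which loads cohesin, the DNA ligase gene CDC9, the mating-pathway kinase genes STE7 and STE11, MRE11, a nuclease of double-strand break repair, and CDC28, the cyclin-dependent kinase itself.

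At 35 min 99.7% of bins and all 319 origins had passed, and 6 stretches remained, the longest of 11 kb at chrXIII:720001-731000 over MRE11, TAF7, MTF1 and the ribosome assembly gene RRP5. The others lay at chrIV:841001-850000 with RVB1, HST4 and NUP42, at chrVII:1034001-1042000 with TAF1, at 2 places in chromosome XII between positions 851001 and 858000 with STE11 and RPS22B, and in 1 bin on chromosome IV. The 35 bins that passed at 40 min were on 4 chromosomes, at a median of 35.3 kb from an origin. After that no bin of the smoothed profile was below 1.5 copies. The contrast fell to 5.94% at 35 min, 3.82% at 40 min, 2.51% at 45 min, then 0.461% at 60 min, where the mean ratio was 2.0. The share of bins at least 5% above the mean, which was 0.0709% at 5 min and 0.0531% at 10 min, was 25.3% at 20 min, highest at 25 min with 37.7%, and 35.3% at 30 min. From 35 min on it was 23.4%, 8.18%, 2.53%, 1.65% and finally 0.168%, and origins above that level numbered 122, 41, 16, 5 and 3 of 319.

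**Figure D1:**
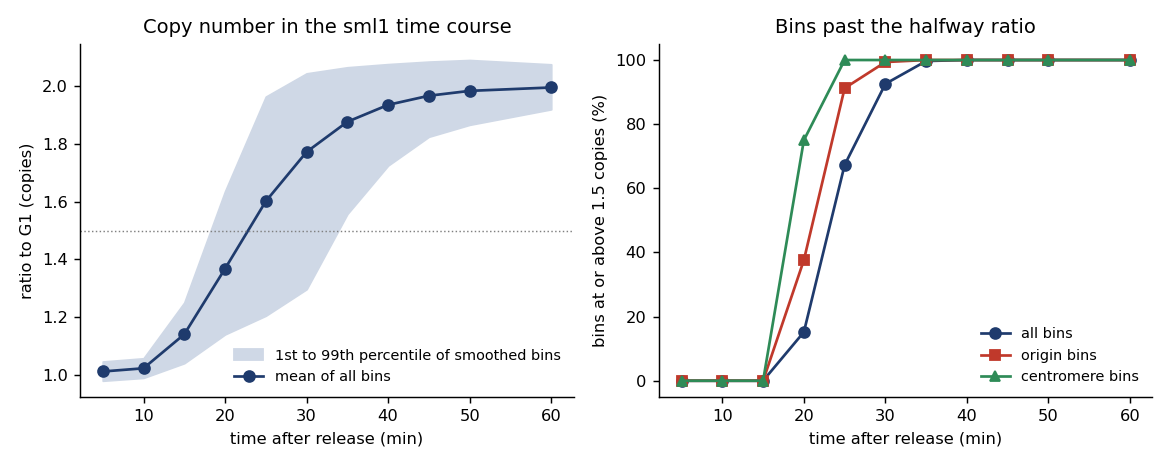
Left, mean ratio to G1 over all bins (points) against time after release in min, with the 1st to 99th percentile of the smoothed bins shaded. Right, percent of all bins, origin bins and centromere bins at or above 1.5 copies. Centromeres led at 20 min with 12 of 16, then origins with 37.6%, and all bins with 15.2%.

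The 10 earliest origins rose together and their ratios overlapped at every time. ARS1330 had 1.02 copies at 5 min, 1.08 at 10 min, 1.26 at 15 min, 1.64 at 20 min, 1.92 at 25 min, 1.99 at 30 min, 2.0 at 35 min, 1.98 at 40 min, 2.05 at 45 min, then 2.02 at both 50 and 60 min, as the mean over 3 bins. Its Trep was 16.9 ± 0.634 min (SE of the fit). The group ran on through ARS428 (17.0 ± 1.18 min), ARS815 (17.1 ± 1.07 min), ARS1014 (17.3 ± 0.862 min), ARS306 (17.3 ± 1.09 min), ARS1218 (17.3 ± 1.17 min), ARS1422 (17.4 ± 0.944 min), ARS209 (17.5 ± 0.695 min) and ARS901 (17.5 ± 0.819 min) to ARS305 (17.5 ± 0.743 min). These values lie within 1.22 min of each other, so the order inside the group is not resolved. Smoothing over 9 bins moved ARS1330 to 18.6 min. At 20 min the ratios of the 10 lay between 1.58 and 1.75, where the mean of all bins was 1.37. The 20-min library took part in the Trep that chose these origins, so high values there follow in part from the choice.

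**Figure D2:**
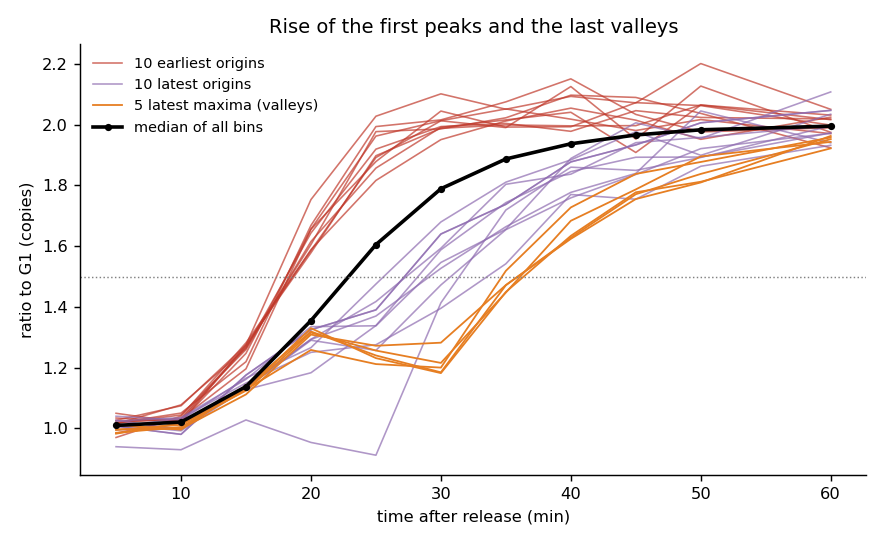
Ratio to G1 against time after release in min for the 10 earliest origins (red, mean over 3 bins), the 10 latest origins (purple, 3 bins; ARS601 and ARS602 share a bin) and the 5 latest maxima of the smoothed Trep profile (orange, 9 bins), with the median of all bins in black. The early origins lie between 1.58 and 1.75 at 20 min, and the valleys lie lower at 30 min than at 20 min in all 5. The purple line that falls below 1 copy is ARS300.

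The origins most used as models fell along the whole order. ARS1, the first ARS to be isolated from yeast, lies between TRP1 and GAL3 and had a Trep of 17.8 ± 0.677 min, rank 14 of 324. ARS607 on chromosome VI had 17.9 ± 0.520 min and rank 15, and ARS307 on chromosome III 19.2 ± 0.917 min and rank 53. ARS522 had 21.5 ± 0.979 min and rank 175, ARS603 had 23.8 ± 0.920 min and rank 247, and ARS609 had 24.4 ± 1.07 min and rank 263. ARS301, which the annotation describes as inactive at the silent mating-type locus HML, had 26.8 ± 2.55 min.

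At 20 min ARS1 had 1.73 copies and ARS607 1.70, while ARS603 had 1.43 and ARS609 1.33. At 35 min ARS603 and ARS609 had 1.83 and 1.75. ARS1, ARS607 and ARS307 were above ARS522, and ARS522 above ARS603 and ARS609, at 20, 25 and 30 min alike.

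Over all 324 annotated origins with a Trep (352 annotated, 45 of the 324 putative), the median was 21.3 min and the 10th and 90th percentiles were 18.8 and 26.0 min. They lie in 321 different bins. Origins were divided into quintiles of 61 by Trep in the libraries at 10, 20, 30, 40 and 50 min, and Trep was then read from the other 6 libraries, which gave medians of 18.8, 20.0, 21.5, 23.2 and 26.1 min. Origins without a Trep from the first set of libraries were left out of the quintiles. At 15 min, in a library not used for the division, the ratio of the first quintile ran from 1.12 through a median of 1.24 to 1.33, and that of the last from 1.01 through 1.14 to 1.22. At 25 min the values were 1.59, 1.88 and 2.03 against 0.912, 1.52 and 1.71. The quintiles thus overlapped at both times, with separate medians.

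The position of early and late origins differed. Within 25 kb of a centromere lay 13, 12, 4, 1 and 0 origins from the first to the last quintile, and within 50 kb of a chromosome end 5, 1, 5, 10 and 20. A local minimum of the Trep profile lay within 3 kb of 40, 21, 18, 20 and 12 of the 61. The profile includes the libraries that set the quintiles, so these counts are not independent of the division. GC content of the elements was alike, with medians between 29.4 and 30.2%. The rise from 10 to 90% of the fitted increase took a median of 13.9 min in the first quintile and 28.8 min in the last. This width is from the fit to all libraries, among them those that set the quintiles.

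**Figure D3:**
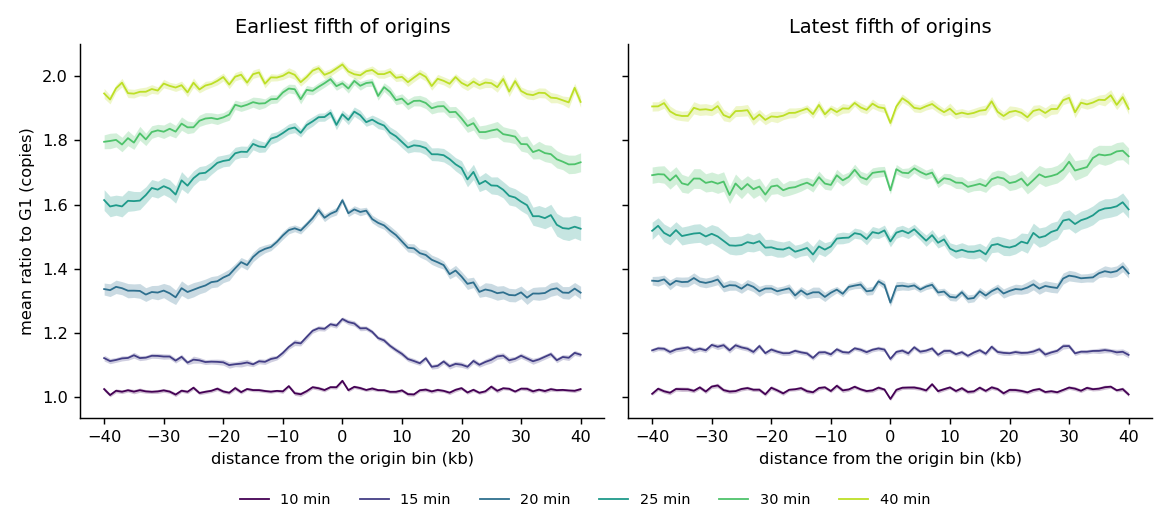
Mean ratio to G1 against distance from the origin bin in kb, for the first (left) and last (right) quintile of origins, at 10, 15, 20, 25, 30 and 40 min; shading is the SE over origins. The first quintile has a peak of 1.24 at 15 min and 1.61 at 20 min, and the last has 1.12 and 1.29 at the origin bin.

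Around the first quintile the peak broadened with time. At 15 min the mean ratio was 1.24 at the origin, 1.21 at 5 kb, 1.14 at 10 kb and 1.10 at 15 kb. At 20 min it was 1.61 at the origin, 1.43 at 15 kb and 1.33 at 30 kb, and at 25 min 1.88, 1.77 and 1.63. Around the last quintile the mean ratio at 25 min was 1.49 to 1.52 at 1 to 5 kb on either side, 1.44 to 1.47 at 11 to 16 kb and 1.55 at 40 kb, so a shallow rise around these origins lay below the level farther out. The origin bin itself had 1.49, and it was also below its neighbours at 5 and 10 min, with 0.996 and 0.994. The slope of Trep on distance over 15 kb was 0.196 min per kb at the median of 117 origins that lie within 3 kb of a minimum (quartiles 0.158 and 0.238). It was 0.182 for the 59 earlier and 0.223 for the 58 later of these. It is a slope of averages over a population of cells and not a fork speed.

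The latest origins lay mostly near chromosome ends. ARS610, at the right end of chromosome VI, had 1.01 copies at 5 min, 1.03 at 10 min, 1.15 at 15 min, 1.25 at 20 min, 1.28 at 25 min, 1.40 at 30 min, 1.54 at 35 min, 1.77 at 40 min, 1.75 at 45 min, 1.86 at 50 min, then 1.93 at 60 min, and a Trep of 37.5 ± 1.20 min. ARS300, at the left end of chromosome III, had 33.0 ± 1.25 min, and its ratio was 0.954 at 20 min and 0.912 at 25 min before it rose to 1.41 at 30 min. ARS103 (30.5 ± 0.769 min), ARS1102 (30.3 ± 1.23 min) and ARS601 and ARS602, which share a bin (29.1 ± 0.712 min), also lay within 50 kb of an end. ARS317, the origin at the silent mating-type locus HMR, had 29.5 ± 1.02 min.

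The exceptions in the interior of chromosomes were ARS810 (31.0 ± 0.982 min) in the repeats of the metallothionein gene CUP1, ARS701 (28.2 ± 1.01 min) inside TIP20, and ARS1611 (28.2 ± 0.789 min) over SPT14 and NIP100. ARS1502, with a Trep of 37.1 min, had an SE of 3.75 min and was left out of the order. These 10 latest origins lay between 9.63 and 70.2 kb from the nearest minimum of the profile. They were chosen for a late Trep and the minima come from the same Trep values, so this distance follows in part from the choice.

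The smoothed profile had 157 minima, the peaks of early replication, and 155 maxima, the valleys. These counts depend on the settings: over 24 alternatives in processing they were 131 to 203 minima and 129 to 200 maxima. What follows is for the 157 and 155. The minima ran from 17.8 to 25.5 min (median 20.0 min) and the maxima from 20.1 to 36.3 min (median 27.8 min). Of the minima 113 (72.0%) lay within 3 kb of an annotated origin, where 1810 of the 11306 bins (16%) lie, and of the maxima 4 (2.58%). The earliest minimum was at chrIV:464001-465000 in GAL3 (17.8 min), 1.91 kb from ARS1. The others of the first 5 were in FRE3 on chromosome XV (17.8 min), in SEN34 on chromosome I beside ARS101 (17.9 min), at ARS607 (18.0 min) and at ARS511 on chromosome V (18.1 min). They differ by less than the SD between neighbouring bins.

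Some strong peaks had no annotated origin nearby. Of the 157 minima 10 were over 10 kb from the nearest one, and 5 of those 10 had a Trep below 21 min. The FRE3 minimum was 73.9 kb from ARS1529. Its ratios over 9 bins were 1.29 at 15 min, 1.66 at 20 min and 1.97 at 25 min, against 1.21, 1.73 and 2.04 at the GAL3 minimum. The others were in ASE1 on chromosome XV (18.7 min, 55.3 kb from ARS1501), in STB6 on chromosome XI (19.1 min, 29.3 kb from ARS1109), in THI20 on chromosome XV (20.0 min) and between UTP11 and MTC2 on chromosome XI (20.9 min). Origins absent from the annotation used here were not searched for.

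The valleys were the last places to be copied. The latest was at chrVII:1039001-1040000, over TAF1, a subunit of the general transcription factor TFIID, with a smoothed Trep of 36.3 min. Its ratios were 0.986 at 5 min, 1.0 at 10 min, 1.13 at 15 min, 1.33 at 20 min, 1.23 at 25 min, 1.18 at 30 min, 1.45 at 35 min, 1.63 at 40 min, 1.78 at 45 min, 1.81 at 50 min, then 1.92 at 60 min. The next were in STE11 and NMD4 on chromosome XII (35.9 min), NUP42 on chromosome IV (35.5 min), RRP5 on chromosome XIII (35.1 min) and HSP78, a mitochondrial chaperone gene on chromosome IV (34.6 min). These 5 lay 30.8 to 44.3 kb from the nearest annotated origin.

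The 5 valleys had lower ratios at 25 and 30 min than at 20 min. To look at this in libraries not used to choose the bins, the latest 2% of bins (226 bins on 9 chromosomes) were chosen on the 30, 35 and 40 min libraries alone. They had a mean ratio of 1.14 at 15 min, equal to the mean of all bins, 1.31 at 20 min and 1.25 at 25 min. The smoothed ratio was lower at 25 than at 20 min in 211 of 226 (93.4%), against 6.64% of all bins. The earliest 2% had 1.18, 1.60 and 1.95. Ratios within a table are relative, since their mean is set to the bulk factor, which rose from 1.37 to 1.60 between 20 and 25 min.

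The tables at 15 and 20 min also resembled those at 25 to 40 min less than the latter resembled each other. Across bins, Pearson's r after smoothing lay between 0.0665 and 0.148 for the 15-min table with those at 25, 30, 35 and 40 min, between 0.551 and 0.767 for the 20-min table with the same tables, and between 0.875 and 0.976 among those tables. Tables from 45 min on, where the contrast was low, gave values down to 0.375 between neighbouring times. The bins are not independent and share 1 G1 library. With both libraries left out the median Trep of all bins was 24 min.

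**Figure D4:**
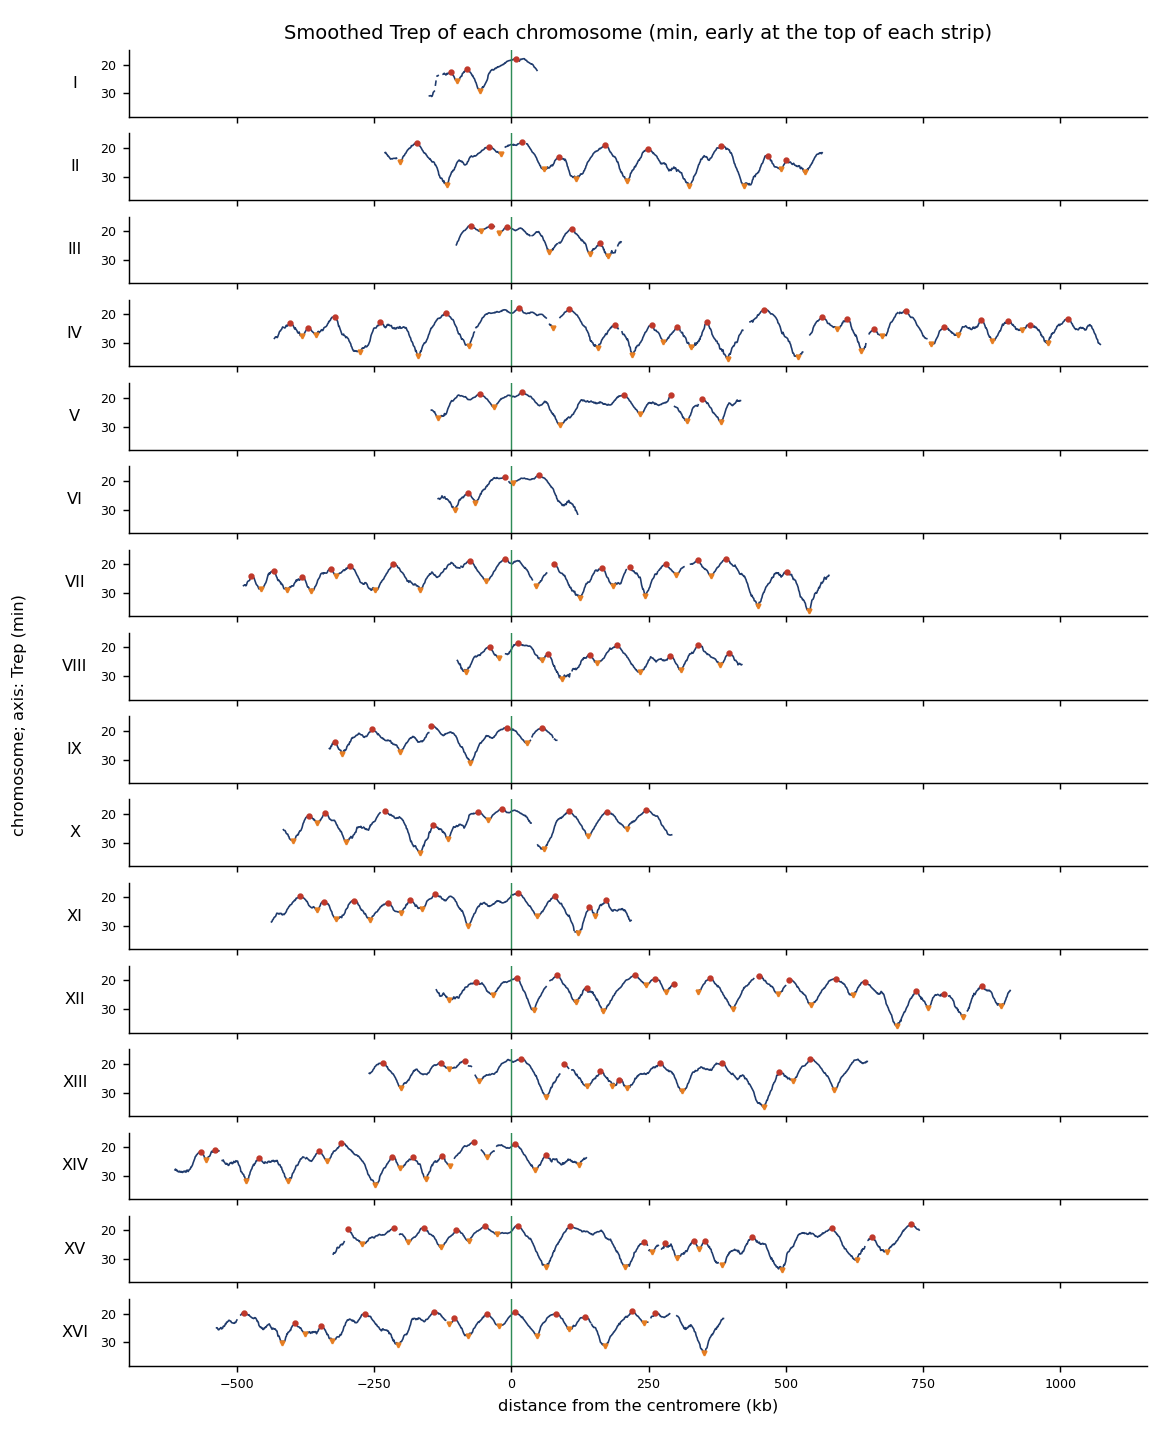
Smoothed Trep in min of the 16 chromosomes against distance from the centromere in kb (green line at 0), with early at the top of each strip. Red points are the 157 minima and orange triangles the 155 maxima. Every centromere lies in an early domain, and the deepest valleys, down to 36.3 min, lie on the arms.

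Longer intervals between peaks had later valleys. The spacing of neighbouring minima had a median of 66 kb, between 20 and 184 kb over 141 pairs. The valley had a median Trep of 25.2 min in intervals under 40 kb (16 pairs), 25.9 min at 40 to 60 kb (44 pairs), 27.8 min at 60 to 80 kb (35 pairs), 30.7 min at 80 to 100 kb (23 pairs) and 31.2 min above 100 kb (23 pairs). Pearson's r between spacing and valley was 0.581 and Spearman's rho 0.622 over the 141 pairs, as a description. Where the 2 minima differed by 2 min or more, the valley lay nearer the later one in 47 of 52 intervals.

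The longest interval, 184 kb on chromosome V from the minimum near ARS511 to that near ARS516, had a valley of 29.4 min. The next were 152 kb on chromosome XI (valley 29.8 min) and 146 kb on chromosome XV (33.8 min). These intervals run between minima with a prominence of 2 min, so annotated origins can lie inside them. The one on chromosome XI holds ARS1109 (19.9 min). The one on chromosome V holds an annotated origin 12.7 kb from RNR1 (21.4 min). The longest intervals between minima therefore did not hold the latest valleys. Gaps between annotated origins were not measured, so this does not describe stretches without origins.

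Centromeres, where the kinetochore assembles, were early on every chromosome. The median Trep of the 16 centromere bins was 19.9 min, and all 16 were earlier than the median of their own chromosome, with a median difference of -2.72 min (centromere minus chromosome). CEN1 had 18.2 ± 0.333 min, CEN2 18.2 ± 0.435 min and CEN3 19.0 ± 0.951 min. In single bins the latest were CEN8 (21.7 ± 0.577 min), CEN7 (21.7 ± 0.726 min) and CEN6 (21.1 ± 0.594 min). The other 10 lay between 19.3 and 20.9 min. In the smoothed profile the latest were CEN6 and CEN8 (both 20.8 min) and CEN16 (20.4 min). CEN7 had 19.8 min there, so its place among the latest rests on its single bin. At 20 min CEN1 had 1.61 copies and CEN8 1.49, and at 25 min 1.97 and 1.84.

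CEN1, from the early group, and CEN8, from the late group, are shown here as RefSeq R64 plus-strand sequence (chrI:151465-151582 and chrVIII:105586-105703). Capitals mark the annotated elements CDEI and CDEIII, which the proteins Cbf1 and CBF3 bind, and the AT-rich element CDEII lies between them. CEN8 reads from CDEIII to CDEI on this strand.
CEN1: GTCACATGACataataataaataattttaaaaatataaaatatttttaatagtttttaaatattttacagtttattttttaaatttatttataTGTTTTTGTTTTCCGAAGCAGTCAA
CEN8: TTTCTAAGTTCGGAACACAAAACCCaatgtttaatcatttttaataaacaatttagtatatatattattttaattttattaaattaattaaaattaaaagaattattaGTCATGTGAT

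Early replication extended out from the centromere. The median Trep was 19.5 min at 0 to 10 kb, 19.5 min at 10 to 20 kb, 20.7 min at 20 to 30 kb, 21.6 min at 30 to 40 kb and 22.1 min at 40 to 50 kb, against 24.1 min beyond 100 kb. The fitted rise was also shorter there, with a median of 10.8 min within 10 kb of a centromere and 22.9 min beyond 100 kb. The nearest origin was not always at the centromere. CEN6, CEN7 and CEN8 had their nearest annotated origin 10.7 to 12.5 kb away. In single bins that origin was earlier than the centromere in each case (ARS806 at 18.7 min against CEN8 at 21.7 min). Smoothed, CEN6 and CEN8 both had 20.8 min, still later than the single bins of ARS605 (19.1 min) and ARS806. CEN7 had 19.8 min smoothed, against 20.4 min in the single bin of ARS720, its nearest origin. The order at CEN7 is therefore not resolved. CEN1, which is 3.97 kb from ARS108 (17.8 min), and CEN3, which shares its bin with ARS308, were among the earliest. Other centromeres did not follow this order. CEN2 was earlier than ARS208 beside it (20.2 min), CEN9 had 20.9 min at 1.59 kb from ARS920, and CEN4 had 19.9 min at 12.8 kb from ARS1. Smoothed over 9 bins, CEN2, CEN9 and CEN4 had 18.8, 19.8 and 19.5 min, and the bin of ARS920 had 19.7 min. Differences between single bins this close together may not be resolved.

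Chromosome ends were late in general, with exceptions. Bins within 50 kb of an end had a median Trep of 24.6 min, against 23.4 min elsewhere, and those within 10 kb 25.7 min. Of 32 ends 23 were later than the genome median. The latest were the left ends of chromosome VI (28.0 min) and XIV (27.7 min). The right ends of chromosomes XV (19.1 min) and XIII (19.6 min) and the left end of III (19.8 min) were early, and the last of these holds ARS305. Within 20 kb the left end of III had a median of 26.5 min over 11 bins. Only 84 bins within 10 kb of an end had a Trep; the tables use uniquely mapped reads only.

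The mating-type loci on chromosome III showed the same contrast. HML and HMR, the silent copies near the ends, had a Trep of 26.7 ± 1.33 min and 27.2 ± 0.683 min. MAT, the expressed copy in the right arm, had 23.3 ± 0.868 min. At 20 min HML had 0.995 copies, HMR 1.35 and MAT 1.30, and at 30 min 1.65, 1.56 and 1.86. The 3 loci share sequence, so only part of each gives unique reads, with 2, 4 and 2 bins for HML, HMR and MAT. The reads were mapped to a reference of another strain. Whether reads of the expressed copy were counted at a silent one was not tested.

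Chromosomes differed in their median Trep. Chromosome III was earliest (21.3 min), followed by V (22.0 min) and I (22.3 min), and chromosome IV was latest (25.0 min), after XIV (24.4 min) and II (24.2 min). Chromosome III had 1 origin with a Trep per 17.6 kb and chromosome IV 1 per 39.3 kb, but the densest after III, chromosome VI (20.8 kb per origin), had a median of 23.2 min, and the sparsest, XV (57.4 kb), had 23.3 min. Across the 16 chromosomes Pearson's r of median Trep with length was 0.710 and Spearman's rho 0.647, as a description. At 25 min chromosome III had a mean ratio of 1.72 and chromosome IV 1.53. At 15 min the order was the other way, with 1.13 and 1.15.

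The core histone genes were copied early. All 8 were earlier than the median of 5797 protein-coding genes (23.6 min), with a list median of 18.8 min. These genes encode the proteins that package new DNA, and they lie in pairs. HHF1 had 17.5 ± 0.695 min and its neighbour HHT1 18.6 ± 0.645 min, beside ARS209. HTA1 had 17.7 ± 0.651 min and HTB1 19.7 ± 1.03 min, beside ARS428. HTB2 had 18.3 ± 0.586 min and HTA2 19.0 ± 0.695 min, near CEN2, and HHF2 and HHT2 on chromosome XIV had 20.9 ± 0.389 and 21.0 ± 0.431 min. Their ratios at 20 min ran from 1.42 (HHT2) to 1.74 (HHF1). Being pairs, the 8 genes stand for 4 places in the genome.

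The genes of the replication machinery were spread over the whole order. SML1, whose coding sequence is replaced in these cells, had 21.3 ± 0.876 min, and a ratio to G1 of the same strain cannot show whether the gene is present. Among 7 initiation factors 5 were earlier than the median gene. DBF4 (18.8 ± 0.344 min) and CDC7 (19.8 ± 0.340 min), the subunits of DDK, and SLD7 (18.8 ± 0.584 min), the partner of Sld3, came first. SLD3 (22.4 ± 0.576 min), which recruits CDC45 (23.1 ± 0.282 min), a helicase subunit, was close to the median. SLD2 had 24.5 ± 0.882 min, and DPB11, the scaffold that joins phosphorylated Sld2 and Sld3, had 31.7 ± 0.678 min, close to the 95th percentile of all bins (31.1 min), and 30.4 to 32.4 min with 1 time point left out in turn.

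The 14 licensing genes had a median of 23.4 min, with 7 on each side of the median gene, from MCM3 (19.6 ± 0.387 min), a subunit of the replicative helicase, to ORC2 (29.0 ± 0.553 min), a subunit of the origin recognition complex. The 23 fork, checkpoint and nucleotide genes had a median of 22.7 min, with 14 earlier. RFA1, the large subunit of the single-strand binding protein RPA, was first at 18.2 ± 0.396 min. DUN1, a checkpoint kinase that acts on Sml1, was last at 33.9 ± 1.15 min, next to POL3, the catalytic subunit of polymerase delta. The 8 timing regulators had a median of 24.1 min, from SIR4 (19.2 ± 0.332 min) to SIR2 (29.4 ± 0.488 min), both for silencing proteins. Of the 9 cyclin genes 7 were earlier than the median gene, and the list ran from CLB5 (19.4 ± 0.427 min) to CLB3 (32.2 ± 0.867 min).

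The metabolic and meiotic lists had medians below that of all genes, and each also held genes later than it. The 15 glycolytic genes had a median of 20.2 min, with 10 earlier than the median gene, from PDC1, pyruvate decarboxylase (18.3 ± 0.521 min), to PFK1, a phosphofructokinase subunit (25.2 ± 0.539 min). Of the 16 hexose transporter genes HXT 11 had a Trep, with a median of 19.9 min and 7 earlier than the median gene, from HXT2 (17.4 ± 0.555 min) to HXT14 (28.9 ± 0.673 min). The 7 galactose genes had a median of 21.2 min, with 6 earlier, of which GAL1, GAL7 and GAL10 are neighbours, from GAL3, the galactose sensor next to ARS1 (17.5 ± 0.545 min), to GAL2, the galactose permease (23.8 ± 0.779 min). The 10 meiotic genes had 21.2 min, with 7 earlier, from SPO13 (19.0 ± 0.558 min) to SPO12 (25.5 ± 0.739 min).

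The 132 ribosomal protein genes had a median of 22.7 min, with 83 earlier than the median gene, from RPL4B (18.4 ± 0.912 min) to RPS22B (35.9 ± 1.02 min), which lies in the last valley of chromosome XII. Of 275 tRNA genes 265 had a Trep, with a median of 21.5 min, and 70.6% were earlier than the median protein-coding gene. Of 50 annotated LTR retrotransposons 39 had one, with a median of 22.2 min. Most of these values rest on 1 or 2 bins. The positions are those of the reference, and whether the elements are present in this strain was not checked. Of the gene families with many members near chromosome ends, 9 of 24 PAU genes had a median of 21.3 min, from PAU7 (19.1 ± 0.523 min) to PAU8 (29.2 ± 1.35 min), 4 of 12 COS genes 23.7 min, from COS111 (20.1 ± 0.354 min) to COS8 (26.7 ± 0.983 min), and all 5 FLO genes 23.1 min, from FLO1 (21.0 ± 1.53 min) to FLO5 (24.5 ± 1.13 min). Of the members with a value 5 PAU genes and 1 COS gene (COS111) lie over 50 kb from an end, while all 15 PAU and 8 COS genes without one lie within 50 kb, so these medians do not describe the families' members near ends. Of 5 genes listed at the silent mating-type loci, the 3 with a value were later than the median gene, from HMRA2 (24.8 ± 1.63 min) to YCL068C (26.8 ± 2.55 min). HMLALPHA1 and HMLALPHA2 had no value. YCL068C lies in HML but has no gene name, and its value is that of the bin that holds ARS301. Genes of a list can share a neighbourhood, so these counts are not counts of independent events.

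**Figure D5:**
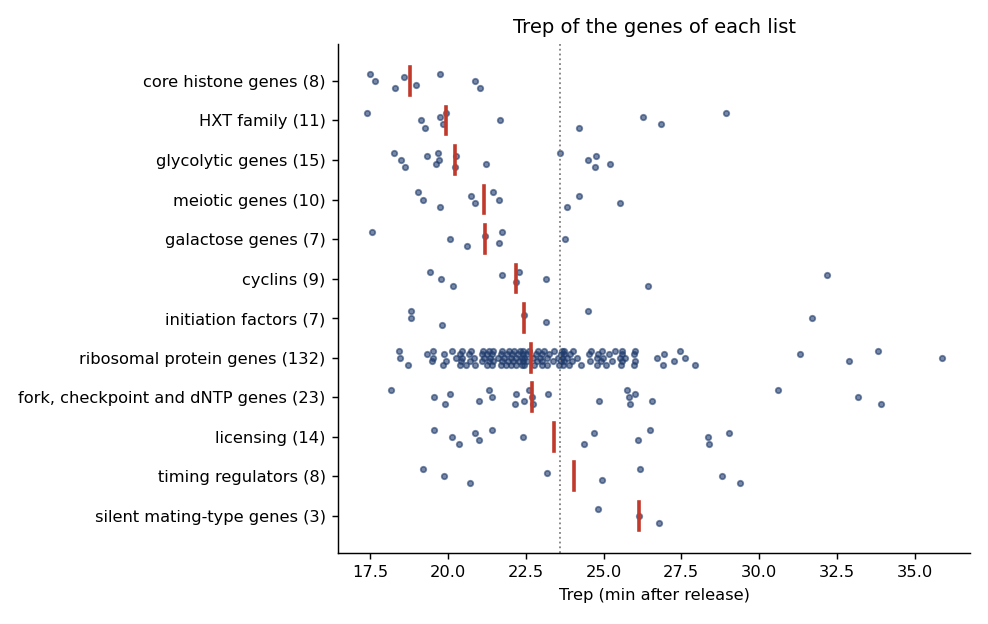
Trep in min of each gene (points) in 12 lists, with the number of genes that had a value in brackets. The red bar is the list median and the dotted line the median of all 5797 protein-coding genes, 23.6 min. The 8 core histone genes all lie to its left. The 3 genes listed as silent mating-type genes, among them the unnamed YCL068C in HML, lie to its right.

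The fitted rise was also wider in late regions than in early ones. Bins were divided into quintiles by Trep from the libraries at 10 to 50 min, and the width of the rise from 10 to 90% was read from the 5, 15, 25, 35, 45 and 60 min libraries. It had medians of 13.6, 17.2, 22.0, 25.3 and 29.5 min from the first to the last quintile. With the roles of the libraries exchanged the medians were 13.8, 17.5, 21.6, 26.1 and 32.3 min. The fitted curve can only rise, while the latest 2% of bins had mean ratios of 1.14, 1.31 and 1.25 at 15, 20 and 25 min. What this fall adds to the widths of late bins was not tested. The width measures the rise over the population of cells, in which the spread of S-phase entry, of origin firing and of fork arrival cannot be told apart.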

How the data were processed

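Genomic DNA of synchronised sml1 cells was sequenced at 11 times of S-phase and in G1. Reads were mapped by the authors with Bowtie2 (version 2.2.6) to the S288C reference (sacCer3, R64), with SAMtools 1.7.2 and bedtools 2.26.0 also named in the submitters' processing notes. The deposited values are the ratio of uniquely mapped reads, S-phase over G1, in bins of 1000 bp, which the authors multiplied by a bulk value between 1 and 2 derived from flow cytometry. The mean of each table is therefore set by cytometry, and only the differences between bins come from sequencing. All 11 tables share 1 G1 library as denominator, so its noise recurs at every time. Read counts are not in these tables, so the depth is unknown and no counting intervals are given.

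A logistic curve from 1 to 2 copies was fitted to each bin by least squares (Python 3.11.15, numpy 2.4.6, scipy 1.17.1, pandas 2.3.3; figures with matplotlib 3.10.9), with Trep and width free. Bins were kept with values at 9 or more times, a Trep from 5 to 60 min and an SE of at most 5 min. The fit was run on ratios simulated from the same logistic curve. Such a run cannot show how the fit performs where ratios depart from that curve. Ratios and Trep were smoothed with a moving average of 9 bins, and minima and maxima needed a prominence of 2 min. Origins, centromeres and genes came from the RefSeq R64 annotation, and a gene's Trep was the mean over the bins it overlaps. Named were the 10 earliest and 10 latest origins with an SE of at most 2 min, familiar model origins, the 3 earliest and 3 latest centromeres, the 5 earliest minima and 5 latest maxima, all histone and initiation genes, and the first and last gene of each other list. Genes named inside late stretches, and the minima far from an origin, were chosen after their values were seen. The members and gene lists were chosen with earlier results of these data known. Alternatives were the shape of the fit, smoothing, GC content, the filters, and the time points used. The other 13 samples of the series were not used here.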

Additional observations from a re-analysis of the deposited data

Results flagged for a closer look

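A bin in the ribosomal DNA on chromosome XII (positions 459001 to 460000, over RDN5-1) had no Trep and lay outside the comparisons. It was singled out because its ratio rose past 2 copies, to 2.57 at 40 min, 3.50 at 45 min, 4.11 at 50 min, then 3.24 at 60 min, after 1.31 at 15 min, 1.65 at 20 min and 1.97 at 30 min. Among the 11306 bins with a Trep the highest ratio at 50 min was 2.53. The ribosomal DNA is a tandem array of which the reference holds few copies, and what the excess stands for was not tested.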

How the results depend on the processing

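No paired analysis was possible because each time point had 1 sample. Over 33 summary values and 525 comparisons with an alternative, 514 moved by less than the spread set for them and 11 by more. That spread was the SD over chromosomes, over centromeres or over the genes of a list, and a fixed factor for counts. It is wide, so a move below it is not evidence that a value is stable. The median of the 3 genes at the silent mating-type loci (26.1 min) was 30.0 min with a scale fitted per bin. It was 27.7 min with ratios averaged over 5 bins and 24.7 min from the 10, 20, 30, 40 and 50 min libraries. The origin median was 20.3 min for only those origins within 3 kb of a minimum. With 5% above the mean in place of 1.5 copies, the share of bins at 20, 25 and 30 min was 25.3, 37.7 and 35.3%, and of origins 55.5, 58.3 and 53.9%; this rule is relative to each table and does not accumulate. The width of the rise in the latest quintile of bins by all libraries was 29.3 to 32.5 min with 1 time point left out in turn, lowest without 20 min. Leaving out both the 15 and 20 min libraries was chosen after seeing the data. Of 1549 comparisons for 80 single loci, 92 moved by more than the SD between neighbouring bins, 31 of them with a scale fitted per bin and 22 with the average over 5 bins. The cause was not tested. Limits are 1 library per time, 1 shared G1 library and steps of 5 min, so orders within about 1.22 min are not resolved. This is the SD of 1 bin, and somewhat larger differences between loci may not be resolved either.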

Other observations

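At 15 min the ratio around the first quintile of origins was lowest, not at the greatest distance, but at 15 kb, with 1.10 against 1.24 at the origin and 1.13 at 30 and 40 kb. At 20 min it fell steadily from 1.61 at the origin to 1.33 at 30 kb. Bins over 20 kb from any annotated origin, the latest by Trep (median 26.8 min), had a mean ratio of 1.13 at 15 min, above the 1.12 of bins at 10 to 20 kb (medians 23.3 and 24.9 min). Bins at 30 to 40 kb from a centromere had 1.11 at 15 min and a median Trep of 21.6 min, earlier than the 24.1 min of bins beyond 100 kb, whose ratio at 15 min was 1.14.

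Of the 9 bins without a Trep, those at positions 55001, 59001 and 84001 of chromosome III and 183001 of chromosome VI stood between 0.885 and 1.07 at 15 min and between 1.55 and 1.69 at 20 min. They lie in the long early blocks of those chromosomes.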
